A study of Mus musculus with 8 samples.

Results

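The complement system was examined in PyMt mammary tumors through 33 mouse genes that encode its components, its lectins and their proteases, its regulators and its receptors. The genes were listed by family with group differences of these tumors already known, and no threshold on a value was used to choose them. Their symbols were looked up in the deposited table of 55414 Ensembl gene identifiers, and each of the 33 matched a single identifier. RNA-Seq had been performed on 8 tumors, 4 treated with EtOH and 4 treated with calcipotriol. Every tumor was grown from the PyMt cell line, which comes from a single MMTV-PyMt mammary tumor, after orthotopic injection into the inguinal fat pad of WT female C57BL/6 mice aged 6 to 8 weeks. Calcipotriol, a vitamin D analog, was given on the skin over the tumor in a dose of 20 nmol every 2 days from 2 days after implantation, EtOH alone was given to controls, and tumors were collected 24 hours after the last dose. The labels number the EtOH tumors 1 to 4 and the calcipotriol tumors 1, 5, 6 and 7. Epithelial is the cell type on the labels, but the RNA came from whole tumors, in which host macrophages, fibroblasts and vessels are also present.

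Complement is a cascade of plasma and cell-surface proteins that marks cells and debris for clearance. The classical pathway starts when C1q, a hexamer of trimers built from the C1qa, C1qb and C1qc chains, binds its target and activates the proteases C1r and C1s. The lectin pathway uses mannose-binding lectin, ficolins and collectins with the MASP proteases, and the alternative pathway amplifies C3 cleavage through factors B, D and properdin. All of them meet at C3 and C5, whose fragments C3a and C5a signal through receptors on myeloid cells, and the last components form a membrane pore. In tissues, macrophages are the best known source of C1q, whereas C1r, C1s, C1 inhibitor and C3 are also made by fibroblasts and epithelial cells, and factor D (adipsin) is made by adipocytes. In bulk tissue, fewer cells of a type and less RNA per cell cannot be told apart.

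The 2 serine proteases C1ra and Masp1 rose with calcipotriol, and no member fell past both thresholds, which were an adjusted p under 0.05 and a change of 1 or more on the log2 scale. Masp1 passed in every alternative tried, whereas C1ra lost its call in 5 of the 8 fits that leave out 1 tumor. The C1q chains were the most abundant members and had lower levels in calcipotriol-treated tumors, with 1 calcipotriol tumor close to the EtOH range. The edgeR test was possible for 26 of the 33 members, and the other 7 had too few counts. Of the 26, 13 had a higher and 13 a lower fitted level, and their median log2 fold change was -0.02, against 0.02 over all 14458 genes tested. The share of all tested genes past both thresholds was 1.07% in the higher and 0.948% in the lower direction, and with the adjusted p alone it was 1.37% in each direction, where the members past it were again C1ra and Masp1. The groups did not overlap for C1ra, C1s1 and Masp1, which were higher in all 4 calcipotriol tumors, and for C1qb, C1qc and Cd59a, which were lower. Such separation was seen in 6.32% of all tested genes in the higher and 6.16% in the lower direction, and 3 of the 26 tested members in each direction are few to set against that background.

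The libraries held 19685397 to 25084715 counts, and the 33 members together took 0.168% to 0.266% of them. The smallest amount that 3 counts can show was 0.119 to 0.146 CPM, the unit of counts relative to the TMM-scaled library total, which covers counting error only. No pair of tumors within a group agreed within sampling noise: the chi-square per degree of freedom over genes was 20.7 at the least, for EtOH tumors 3 and 4. The paper describes the 4 tumors of a group as biological replicates, and the labels do not say whether tumors shared a mouse, cage or day. EtOH tumors 1 and 2 stood apart from EtOH tumors 3 and 4 in several cell type markers. Col1a1 was at 303 and 271 CPM in the first pair and at 1155 and 1040 in the second. Epcam was at 0 and 0 against 4.29 and 2.87, and the summed endothelial list was at 255 and 283 against 129 and 125. The fibroblast and epithelial lists did not move as a whole. Col1a2, Lum and Dpt went with Col1a1, but Col3a1 was at 4165 and 3825 against 2836 and 2577 CPM. Pdgfra was at 187 and 202 against 86.3 and 63.8, and Krt8 at 649 and 652 against 523 and 548. The summed fibroblast list was at 5473 and 5262 against 5385 and 4911. Calcipotriol tumor 1 also stood apart, with Itgax at 16.7 CPM against 1.55 to 1.63 in the other calcipotriol tumors. Beside members whose values split in the same way, the fitted changes without these libraries are given. The epithelial keratin gene Krt8 was detected in all tumors, at 523 to 652 CPM with EtOH and 285 to 516 with calcipotriol, but Epcam was at 0 in 2 tumors.

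**Figure D1:**
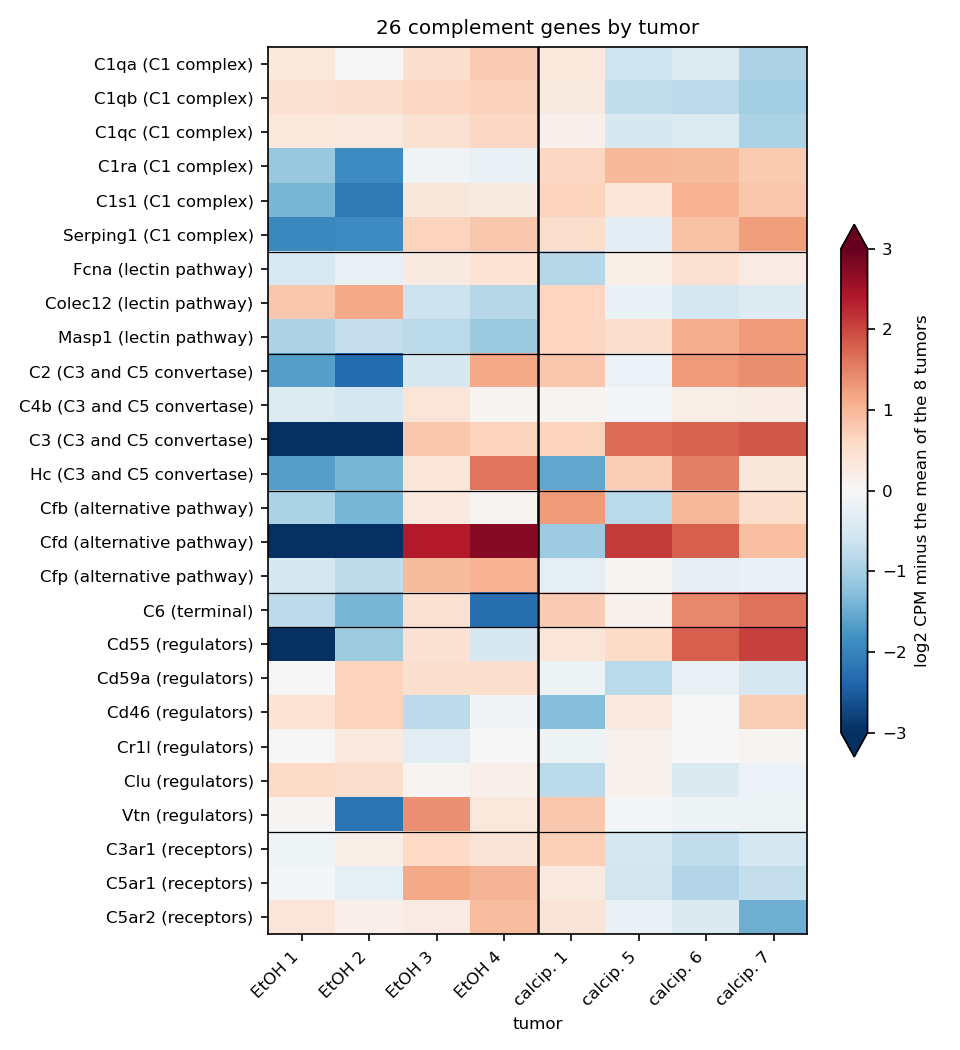
Each row is 1 of the 26 tested complement genes, grouped by role, and each column 1 tumor, with calcipotriol shortened to calcip. The color gives log2 CPM minus the gene's mean over the 8 tumors, and values beyond 3 in either direction take the end color. C1q chains are lower in calcipotriol tumors 5, 6 and 7, Masp1 is higher in all 4 calcipotriol tumors, and C3, Serping1 and Cfd are low in EtOH tumors 1 and 2.

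The sequences before the start sites of 3 members are shown, none of which passed both thresholds in the main comparison. They were chosen for their unlike values: C1qb was lower and C1s1 higher in all 4 calcipotriol tumors, and C3 varied strongly between EtOH tumors. RefSeq promoter windows (GRCm38.p6) were found for 24 of the 33 members in 27 windows, and were not matched for C1qa, C2, C4b, Cfb, Cfi, Clu, Colec12, Masp1 and Serping1. The 250 bases upstream of each start are printed 5′ to 3′ on the strand of the gene, and capitals mark letters of 4 short motifs searched on both strands. The core of ETS sites bound by myeloid transcription factors was searched as GAGGAA. A site of STAT factors was searched as TTCNNNGAA. For nuclear receptors the half-site searched was AGGTCA. The TATA box was searched as TATAAA.
C1qb, chr4:136886201-136886450, minus strand: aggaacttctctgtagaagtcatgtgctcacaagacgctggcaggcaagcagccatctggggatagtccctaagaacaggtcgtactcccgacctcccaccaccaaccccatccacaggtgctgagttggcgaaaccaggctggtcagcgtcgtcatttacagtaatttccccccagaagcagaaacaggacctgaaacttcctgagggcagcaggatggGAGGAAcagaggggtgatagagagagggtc
C1s1, chr6:124542360-124542609, minus strand: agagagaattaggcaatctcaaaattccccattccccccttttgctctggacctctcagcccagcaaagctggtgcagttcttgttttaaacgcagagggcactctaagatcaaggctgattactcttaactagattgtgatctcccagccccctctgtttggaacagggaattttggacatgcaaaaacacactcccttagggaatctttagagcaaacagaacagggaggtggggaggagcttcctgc
C3, chr17:57228137-57228386, minus strand: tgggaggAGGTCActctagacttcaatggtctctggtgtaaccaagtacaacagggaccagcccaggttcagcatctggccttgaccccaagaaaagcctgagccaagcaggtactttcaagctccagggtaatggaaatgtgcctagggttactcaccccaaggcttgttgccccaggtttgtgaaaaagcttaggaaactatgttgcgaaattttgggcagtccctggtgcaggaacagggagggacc
The GAGGAA of C1qb lies 30 to 25 bases before the start, and the AGGTCA of C3 lies 243 to 238 bases before it. C1s1 has none of the 4 motifs in this window. Over all 32536 distinct windows of this length, the ETS core occurred in 23.4%, the STAT site in 7.04%, the nuclear receptor half-site in 14% and the TATA box in 12.3%. Among the 27 windows of members, they occurred in 5, 3, 6 and 4, respectively. A match describes letters only.

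The C1q chains were lower with calcipotriol, most of all in tumors 5, 6 and 7. Their genes lie side by side on chromosome 4 on the minus strand (GRCm38), C1qb at chr4:136880129-136886187, C1qc at chr4:136889804-136893065 and C1qa at chr4:136895917-136898803. C1qb was measured at 457, 473, 509 and 534 CPM in EtOH tumors 1 to 4 and at 399, 199.7, 192 and 165 CPM in calcipotriol tumors 1, 5, 6 and 7. All 4 calcipotriol tumors were below all EtOH tumors, and tumor 1 was much nearer to them than the others. The fitted log2 fold change was -1.05 (SE 0.25, adjusted p = 0.0581, edgeR), which missed the threshold. C1qc was measured at 366, 364, 409.5 and 453 CPM with EtOH and 330.3, 212, 222 and 153 CPM with calcipotriol, again without overlap, with a log2 fold change of -0.80 (SE 0.21, adjusted p = 0.0755). C1qa was measured at 566, 447, 636 and 769 CPM with EtOH and 564, 299.8, 346 and 239.6 CPM with calcipotriol. Here calcipotriol tumor 1 lay within the EtOH range, and the log2 fold change was -0.74 (SE 0.26, adjusted p = 0.165).

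Without calcipotriol tumor 1, all 3 chains passed both thresholds, with log2 fold changes of -1.03 for C1qa, -1.41 for C1qb and -1.02 for C1qc (adjusted p = 0.0179, 5.7e-04 and 0.00714, edgeR). In that fit 2.7% of all tested genes were lower past both thresholds and 1.62% higher. C1qb also passed with all 8 tumors when no filter on low counts was used (adjusted p = 0.0162), with a minimum of 10 counts in every tumor (0.0482), with DESeq2 (0.00138) and with limma-voom (0.0341). In those alternatives C1qc had an adjusted p of 0.0383 without the filter and 0.00743 with DESeq2 but missed the fold threshold in each (log2 fold change -0.79 in both), and C1qa had an adjusted p of 0.0549 or more. Whether the chains passed thus depended on 1 library, and for C1qb also on the test and on the filter on low counts.

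Macrophage markers were mostly lower as well. Of the 10 genes of a macrophage list, 9 had a lower and 1 a higher fitted level, with a median log2 fold change of -0.84. Adgre1, which encodes the pan-macrophage marker stained in the paper, had a log2 fold change of -1.24 (adjusted p = 0.0325, edgeR). By that stain the paper reports the opposite, more macrophages in calcipotriol-treated tumors. Its counts are of stained cells, in mice that also received IgG, and the difference from the RNA was not tested. Csf1r, the receptor for the macrophage growth factor CSF1, fell by 1.64 on the log2 scale and Lyz2, lysozyme, by 1.75, whereas the scavenger receptor gene Cd163 rose by 1.87 (adjusted p = 0.0374, 0.00683 and 0.0192). The summed list was at 2358 to 3379 CPM with EtOH and 1023 to 1568 with calcipotriol, and the 3 C1q chains together at 1284 to 1756 and 557 to 1293. As a description, the C1q sum divided by the macrophage sum was 0.46 to 0.589 with EtOH and 0.528 to 0.824 with calcipotriol. Much of the macrophage sum was Lyz2, at 1343 to 1972 CPM with EtOH and 366 to 680 with calcipotriol. The ratio thus rests largely on that gene. Mrc1 and Cd68 of the same list fell less than the C1q chains, with log2 fold changes of -0.45 and -0.35. Mertk fell more, at -1.52. Relative to Csf1r the C1q sum was 3.46 to 5.7 and 5.88 to 10.5. The part of macrophage number in the C1q levels was not tested.

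C1ra, the protease that C1q activates first, rose 2.84-fold. It lies at chr6:124512405-124523443 on the plus strand and was measured at 9.73, 5.79, 19.9 and 18.9 CPM in EtOH tumors and 32.97, 42.5, 41.7 and 37.5 CPM in calcipotriol tumors, or 13.6 ± 6.91 and 38.7 ± 4.4 (mean ± SD, n = 4). Every calcipotriol tumor was above every EtOH tumor, and EtOH tumors 1 and 2 were the lowest. Its log2 fold change was 1.51 (SE 0.34, 95% interval 0.76 to 2.25, adjusted p = 0.0432, edgeR). This call was lost when EtOH tumor 1, EtOH tumor 2 or calcipotriol tumor 5, 6 or 7 was left out, with adjusted p of 0.0519 to 0.119 and log2 fold changes of 1.26 to 1.52. Without both EtOH tumors 1 and 2 the log2 fold change was 0.999 (adjusted p = 0.0345), just under the fold threshold.

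C1s1, the protease cleaved by C1r, lies near C1ra at chr6:124530345-124542359 on the opposite strand. It was measured at 8.27, 4.87, 27.1 and 26.1 CPM with EtOH and 34.1, 27.6, 44.8 and 38.3 CPM with calcipotriol. The groups did not overlap, but EtOH tumors 3 and 4 were nearly level with the lowest calcipotriol tumor. A log2 fold change of 1.12 (SE 0.47, adjusted p = 0.235) did not pass. It was 0.45 without EtOH tumors 1 and 2 and 2.46 without EtOH tumors 3 and 4 (adjusted p = 0.259 and 0.00441, edgeR). Serping1, which encodes the C1 inhibitor that blocks C1r, C1s and the MASPs, was measured at 7.93, 8.23, 48.6 and 53.1 CPM with EtOH and 44.3, 24.1, 56.5 and 73.3 CPM with calcipotriol, so that EtOH tumors 3 and 4 lay within the calcipotriol range. Its log2 fold change was 0.75 (SE 0.61, adjusted p = 0.559), and it was -0.04 without EtOH tumors 1 and 2.

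Relative to the C1q sum, C1ra and C1s1 were higher in every calcipotriol tumor. As a description, the ratio of C1ra to the C1q sum was 0.0045 to 0.013 with EtOH and 0.026 to 0.067 with calcipotriol, and that of C1s1 was 0.0038 to 0.017 and 0.026 to 0.069. Neither pair of ranges overlapped, which restates the levels given above and is not a further result. The summed fibroblast list, for cells known to make C1r and C1s, was at 4911 to 5473 CPM with EtOH and 3618 to 6448 with calcipotriol, and its 10 genes had a median log2 fold change of 0.05. Much of that sum was Col3a1, at 2577 to 4165 CPM with EtOH, and the genes went both ways: Fbln1 had a log2 fold change of -1.46 (adjusted p = 0.0175, edgeR) and Dcn of 1.23 (adjusted p = 0.136).

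**Figure D2:**
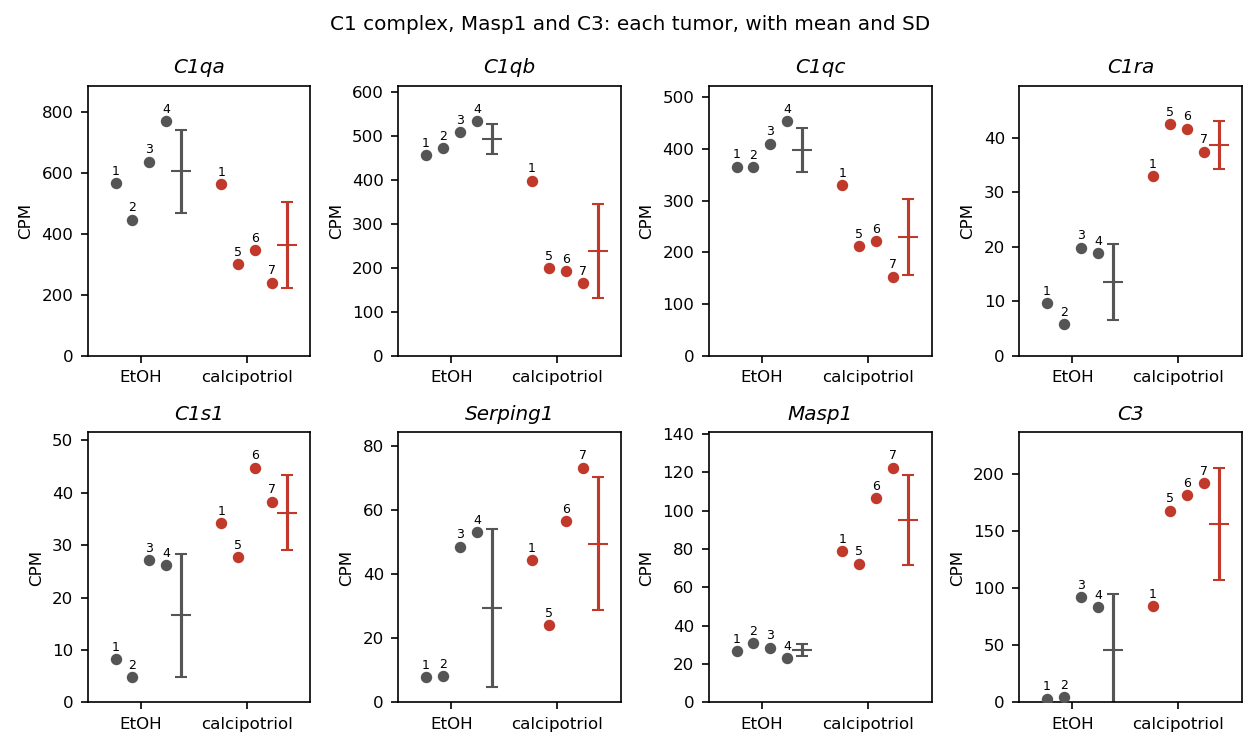
Each panel shows the CPM of 1 gene in every tumor, numbered by its label, with EtOH in gray and calcipotriol in red. The horizontal bar and whiskers give mean and SD (n = 4), and the lower whisker of C3 with EtOH runs below the axis, which starts at 0. Masp1 and C1ra are higher in all 4 calcipotriol tumors, the C1q chains are lower in tumors 5, 6 and 7 than in tumor 1, and EtOH tumors 1 and 2 are the lowest points for C1s1, Serping1 and C3.

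In the lectin pathway, Masp1 rose 3.49-fold and passed in every alternative tried. The gene lies at chr16:23449417-23520815 on the minus strand and yields the proteases MASP1 and MASP3 and the short protein MAp44 by splicing, which gene-level counts do not separate. It was measured at 26.6, 30.7, 28.5 and 23.1 CPM with EtOH and 78.9, 72.3, 106.5 and 122 CPM with calcipotriol. The lowest calcipotriol tumor was well above the highest EtOH tumor, and Masp1 did not share the split between EtOH tumors 1 and 2 and EtOH tumors 3 and 4. Its log2 fold change was 1.803 (SE 0.19, 95% interval 1.39 to 2.21, adjusted p = 0.00173, edgeR) and stayed past both thresholds in all 17 alternatives, at 1.66 to 1.91 with an adjusted p of at most 0.0164.

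The other protease and 3 of the 5 lectins had too few counts for the test. Masp2, the protease that cleaves C4 and C2, had 4 counts in calcipotriol tumor 6 and 0 in the other 7 tumors, and 54.9% of its exon bases overlap Tardbp on the opposite strand. The mannose-binding lectin gene Mbl2 had 15 counts in EtOH tumor 4 and at most 5 in any other tumor, the ficolin gene Fcnb had 0 counts in all 8, and the collectin gene Colec11 had at most 16. The ficolin Fcna, which is expressed by macrophages, was measured at 13.2, 15.4, 21.8 and 23.99 CPM with EtOH and 9.97, 20.3, 24.8 and 21.5 CPM with calcipotriol. The groups covered the same range, with a log2 fold change of 0.04 (95% interval -0.60 to 0.68, adjusted p = 0.959), whose sign turned in some alternatives. Colec12, a membrane collectin that acts as a scavenger receptor, was at 233, 291, 86.4 and 72.9 CPM with EtOH and 208, 116, 92.6 and 101 CPM with calcipotriol. Its high values were in EtOH tumors 1 and 2 and calcipotriol tumor 1, and its log2 fold change of -0.40 (adjusted p = 0.677) was 0.70 without EtOH tumors 1 and 2.

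The central components were expressed at very different levels per length. C4b was at 88.4, 83.1, 152 and 123 CPM with EtOH and 123, 114, 136 and 137 CPM with calcipotriol, with a log2 fold change of 0.19 (SE 0.19, adjusted p = 0.639) and overlapping groups. C3, on which all pathways converge, was measured at 3.21, 4.72, 92.1 and 83.6 CPM in EtOH tumors 1 to 4 and at 84.0, 168, 181 and 192 CPM in calcipotriol tumors 1, 5, 6 and 7. EtOH tumors 1 and 2 were far below all others, and calcipotriol tumor 1 was level with EtOH tumors 3 and 4. C3 had a log2 fold change of 1.76 with an SE of 0.88 (adjusted p = 0.317). Without EtOH tumors 1 and 2 it was 0.83, and without EtOH tumors 3 and 4 it was 5.30 (adjusted p = 5.67e-04). C3 relative to C4b was 0.036 to 0.68 with EtOH and 0.681 to 1.47 with calcipotriol.

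The near copy of C4b, C4a, is the sex-limited protein gene, and reads from sequence that they share could be divided between them. The stretch shown was picked as the 60-base coding window with the most differences between matching flanks, so it is not typical of these genes. The lines give 60 bases of C4b coding sequence from base 2705 and the matching bases of a C4a transcript from base 2755 (GENCODE M21, GRCm38), and capitals mark the 13 differing positions.
C4b: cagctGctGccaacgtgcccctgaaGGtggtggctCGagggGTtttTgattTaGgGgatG
C4a: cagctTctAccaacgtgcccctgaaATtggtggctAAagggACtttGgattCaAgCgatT
Of all 100-base windows of the C4b coding sequence, 16.4% were identical in C4a. C4a itself had 16, 0, 9 and 9 counts with EtOH and 38, 32, 22 and 4 with calcipotriol. For C1ra and its near copy C1rb the identical share was 43.6%, for C1s1 and C1s2 11.3%, for Cd55 and Cd55b 15.6%, and no window was identical for Cd59a and Cd59b. C1rb, Cd55b and Cd59b were at 0 counts in all tumors and C1s2 had at most 20. With near copies summed, the log2 fold change of C1ra was 1.51 and that of C4b 0.20.

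C2, the protease of the classical C3 convertase, was low, at 0.438, 0.243, 1.09 and 3.57 CPM with EtOH and 2.82, 1.37, 3.94 and 4.28 CPM with calcipotriol (log2 fold change 1.21, SE 0.77, adjusted p = 0.442). The values of EtOH tumors 1 and 2 were the lowest, and the log2 fold change was 0.41 without them and 3.17 without EtOH tumors 3 and 4 (adjusted p = 0.0408). Hc, which encodes C5, was at 0.146 to 2.16 CPM with EtOH and 0.159 to 2.02 with calcipotriol, so the groups covered the same range (log2 fold change 0.30, adjusted p = 0.905).

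In the alternative pathway, no gene passed the test. Factor B, Cfb, lies beside C2 in the same cluster on chromosome 17, at chr17:34856374-34862518, and was at 7.25, 5.40, 17.4 and 14.95 CPM with EtOH and 34.2, 7.99, 27.8 and 20.5 CPM with calcipotriol. Only calcipotriol tumor 5 fell within the EtOH range, and the log2 fold change was 1.01 (SE 0.46, adjusted p = 0.279), 0.49 without EtOH tumors 1 and 2 and 1.84 without EtOH tumors 3 and 4 (adjusted p = 0.616 and 0.0779). Reads of C2 and Cfb could also be assigned to the readthrough gene Gm20547, which shares 42.8% and 79.5% of their exon bases and had 0 counts.

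Properdin, Cfp, which stabilizes the alternative convertase, was at 40.8, 33.6, 110 and 117 CPM with EtOH and 46.2, 58.1, 47.7 and 49.5 CPM with calcipotriol. The calcipotriol tumors were close together and lay between the 2 pairs of EtOH tumors. Its log2 fold change of -0.58 (adjusted p = 0.437) was -1.17 without EtOH tumors 1 and 2 (adjusted p = 0.0108, edgeR), past both thresholds, and 0.44 without EtOH tumors 3 and 4.

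Factor D, Cfd, the protease that cleaves factor B, had 4, 0, 433 and 509 counts with EtOH and 38, 314, 241 and 147 with calcipotriol, or 0.195, 0, 17.5 and 22.5 CPM and 1.51, 14.3, 11.6 and 6.23 CPM. The low tumors were EtOH tumors 1 and 2 and calcipotriol tumor 1. The adipocyte genes Adipoq and Cidec were at 0 in the same 3 tumors, and Cidec was at 2.63 and 1.9 CPM in EtOH tumors 3 and 4 and 0.805 to 1.64 in calcipotriol tumors 5, 6 and 7. Plin1, Lpl, Retn and Pck1 of the same list were also lower in EtOH tumors 1 and 2 than in EtOH tumors 3 and 4. Fabp4 and Pparg were not: Fabp4 was at 28.4 and 33.5 against 28.4 and 31.4 CPM, and Pparg at 1.22 and 1.75 against 0.648 and 0.573. The log2 fold change of Cfd was -0.26 (SE 1.2, adjusted p = 0.938), and it was -1.25 without EtOH tumors 1 and 2 and 6.35 without EtOH tumors 3 and 4 (adjusted p = 0.321 and 0.0254). The part of adipocytes in these values was not tested. Over the 10 genes of the adipocyte list the summed level was 30.6 to 52.9 CPM with EtOH and 18.7 to 33.6 with calcipotriol, much of it from Fabp4, which endothelial cells also express, and Lep and Cidea were at or near 0.

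**Figure D3:**
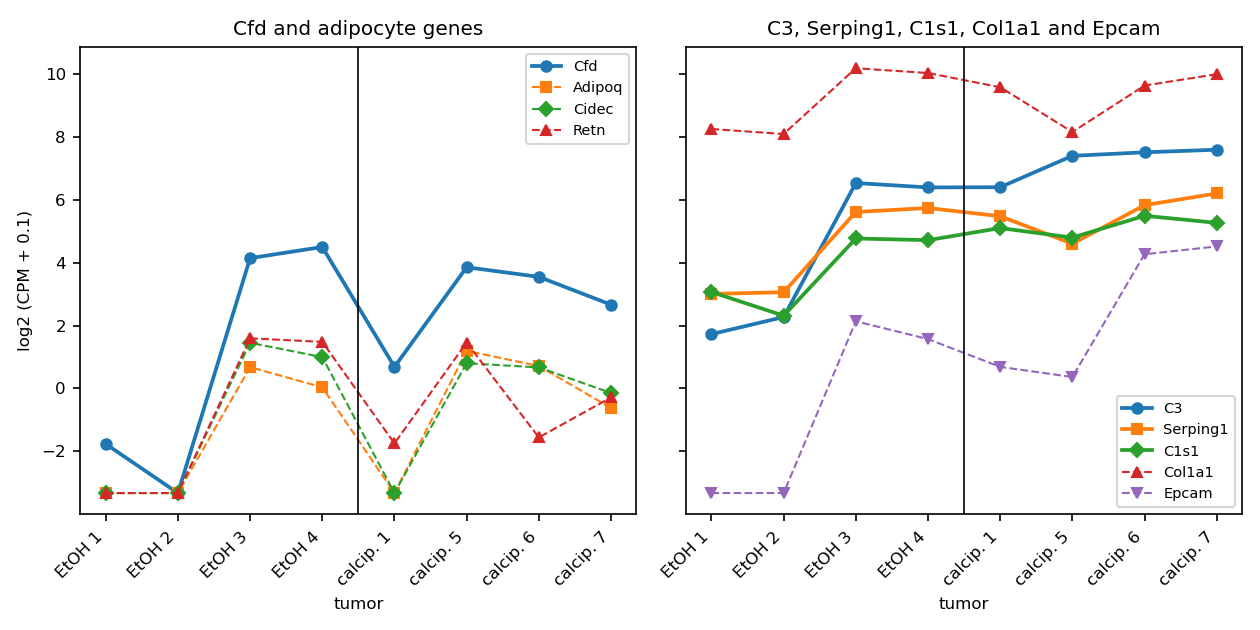
Both panels show log2 (CPM + 0.1) in each of the 8 tumors, with lines joining the values of 1 gene, members as solid lines and markers dashed. On the left, Cfd is low where Adipoq and Cidec are at 0, in EtOH tumors 1 and 2 and calcipotriol tumor 1. Fabp4 and Pparg of the adipocyte list, which are not drawn, are not low in those tumors. On the right, C3, Serping1 and C1s1 are low in EtOH tumors 1 and 2, where Epcam is at 0 and Col1a1 is at 303 and 271 CPM. Col3a1 and Krt8, which are not drawn, are not low there.

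With both EtOH tumors 3 and 4 left out, 7 members were higher past both thresholds, namely C1ra, C1s1, Serping1, Masp1, C2, C3 and Cfd, against 2.1% of all tested genes higher and 1.8% lower. With both EtOH tumors 1 and 2 left out, Masp1 was higher and Cfp lower, against 0.725% of all tested genes higher and 0.411% lower. These comparisons were added after the split had been seen and leave 2 EtOH tumors each. They only describe the split: members low in EtOH tumors 1 and 2 were bound to pass more readily against that pair. Masp1 passed either way, whereas C1s1, Serping1, C2, C3 and Cfd passed with calcipotriol set against EtOH tumors 1 and 2 alone. C1ra passed against that pair and fell just under the fold threshold without it, at 0.999.

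The terminal components were low. C6, the only one with enough counts for the test, was at 0.778, 0.487, 1.94 and 0.221 CPM with EtOH and 2.42, 1.55, 3.99 and 4.54 CPM with calcipotriol. Calcipotriol tumor 5 lay below the highest EtOH tumor, and the log2 fold change of 1.85 (SE 0.68, adjusted p = 0.179) did not pass. C7 had at most 20 counts and C8g at most 18 in any tumor. A full membrane attack complex also needs C8a, C8b and C9, which were not tested because of low counts.

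Among the regulators, none passed the test. Cd55, which speeds the decay of C3 convertases on cell surfaces, was at 0.0486, 0.73, 2.23 and 1.147 CPM with EtOH and 2.11, 2.47, 5.86 and 6.99 CPM with calcipotriol. The single overlap was calcipotriol tumor 1, and the log2 fold change was 2.05 (SE 0.79, adjusted p = 0.204). Cd59a, which blocks the membrane pore, was at 1.61, 2.58, 2.27 and 2.34 CPM with EtOH and 1.43, 0.868, 1.35 and 1.10 CPM with calcipotriol, lower in all 4 tumors but at 56 counts or fewer (log2 fold change -0.89, SE 0.45, adjusted p = 0.322). Clusterin, Clu, a secreted chaperone that binds terminal complexes, was at 283, 274, 201 and 213 CPM with EtOH and 109, 205, 142 and 169.5 CPM with calcipotriol. Calcipotriol tumor 5 was just above the lowest EtOH tumor, and the log2 fold change was -0.63 (SE 0.20, adjusted p = 0.126).

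Cr1l, which encodes Crry, the main C3 regulator on mouse cells, was at 66.3, 81.8, 52.3 and 66.9 CPM with EtOH and 59.8, 73.0, 66.0 and 69.9 CPM with calcipotriol. The log2 fold change was 0.01 with a 95% interval of -0.32 to 0.33 (adjusted p = 0.985), so a change of 1 on the log2 scale lies outside its interval, and its sign turned in some alternatives. Cd46 was at 1.38 to 3.89 CPM with EtOH and 0.953 to 4.11 with calcipotriol, and vitronectin, Vtn, was at 0.0974 to 2.11 and 0.673 to 1.39. Their log2 fold changes of -0.04 and -0.19 had wide intervals (-1.18 to 1.09 and -1.94 to 1.56). Cfi, the protease that inactivates C3b and C4b, had at most 25 counts.

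The receptors for the complement fragments had lower fitted levels, and none passed. C5ar1, the C5a receptor on myeloid cells, was at 21.6, 18.4, 48.9 and 45.1 CPM with EtOH and 27.5, 15.3, 12.0 and 13.6 CPM with calcipotriol. EtOH tumors 3 and 4 were the highest, calcipotriol tumor 1 lay within the EtOH range, and the log2 fold change was -0.97 (SE 0.36, adjusted p = 0.189). It was -1.46 without EtOH tumors 1 and 2 and -0.23 without EtOH tumors 3 and 4 (adjusted p = 0.0604 and 0.72). C3ar1, the C3a receptor, was at 30.5, 37.7, 50.8 and 43.7 CPM with EtOH and 54.7, 23.5, 19.9 and 23.2 CPM with calcipotriol, with the highest of all 8 values in calcipotriol tumor 1. Its log2 fold change was -0.42 (SE 0.31, adjusted p = 0.514) and -0.87 without that tumor (adjusted p = 0.0257, edgeR), which is under the fold threshold. C5ar2, a second C5a receptor, was at 1.996 to 3.48 CPM with EtOH and 0.594 to 2.34 with calcipotriol (log2 fold change -0.78, adjusted p = 0.451). As a description, C3ar1 divided by the macrophage sum, much of it Lyz2, was 0.013 to 0.015 with EtOH and 0.017 to 0.035 with calcipotriol. The same ratio for C5ar1 was 0.0067 to 0.0145 and 0.0113 to 0.0175, and these ranges overlapped.

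**Figure D4:**
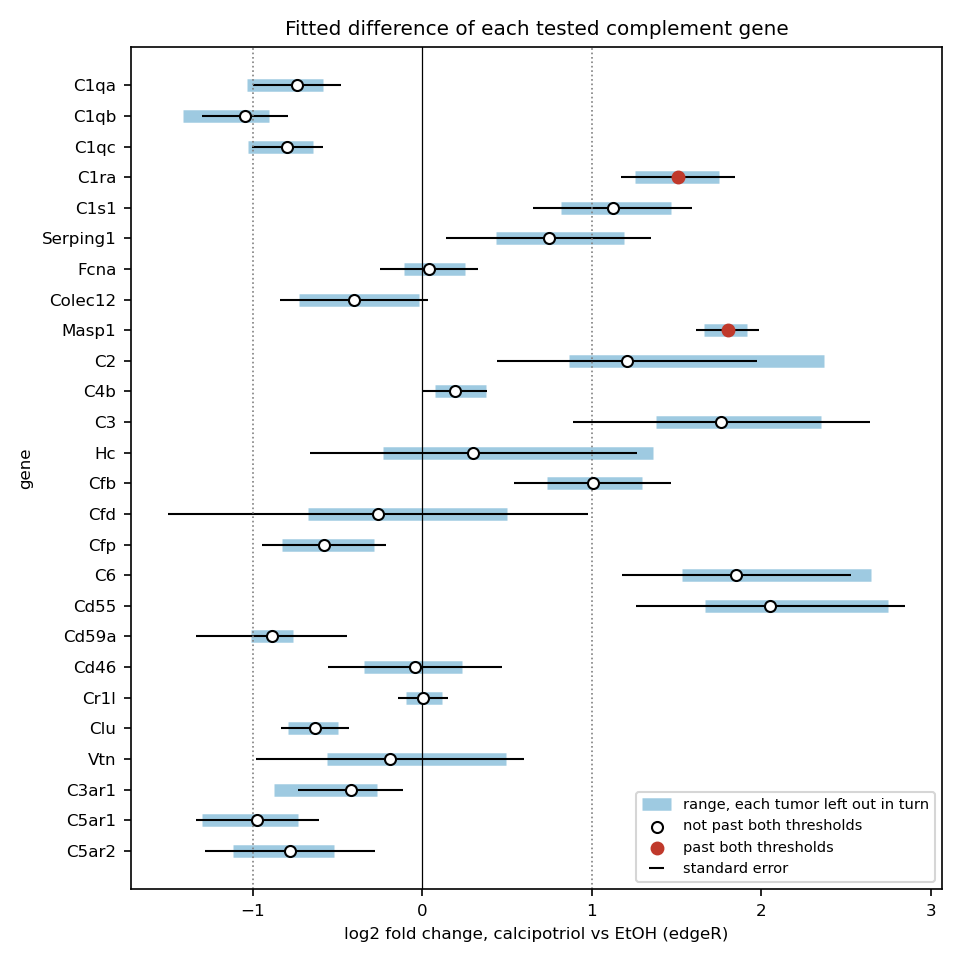
Points give the fitted log2 fold change of calcipotriol against EtOH for the 26 tested members (edgeR, 4 tumors per group), black lines the standard error, and blue bars the range when each tumor was left out in turn; dotted lines mark a log2 fold change of 1 in either direction. C1ra at 1.51 and Masp1 at 1.803 are the filled points, past both thresholds. Masp1 has a short blue bar, and Cfd and Hc have wide ones that cross 0.

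Per length of exon, the members spanned a wide range of levels. With EtOH, C1qa was at 581 ± 129 RPKM (CPM per kilobase of exon), C1qb at 453 ± 31.9 and C1qc at 206 ± 21.9 (mean ± SD, n = 4). With calcipotriol they were at 348 ± 136, 219.6 ± 98.9 and 119 ± 38.3 RPKM and kept this order. Clu followed at 70.6 ± 12.1 RPKM with EtOH, then Cfp at 43.3 ± 25.4 and C4b and Colec12 at 19.6 each, the last 3 within their spread of one another. The proteases were far lower than the chain genes of the same complex, with C1ra at 4.55 ± 2.32 RPKM and C1s1 at 5.3 ± 3.73 with EtOH and 13.0 ± 1.47 and 11.6 ± 2.3 with calcipotriol. Masp1 was at 2.77 ± 0.328 and 9.66 ± 2.39 RPKM and C3 at 8.93 ± 9.45 and 30.4 ± 9.56. The length used matters for some: with the longest transcript in place of all exon bases, C1qc was at 330.9, Clu at 134, Cr1l at 17.3 and Masp1 at 5.09 RPKM with EtOH.

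**Figure D5:**
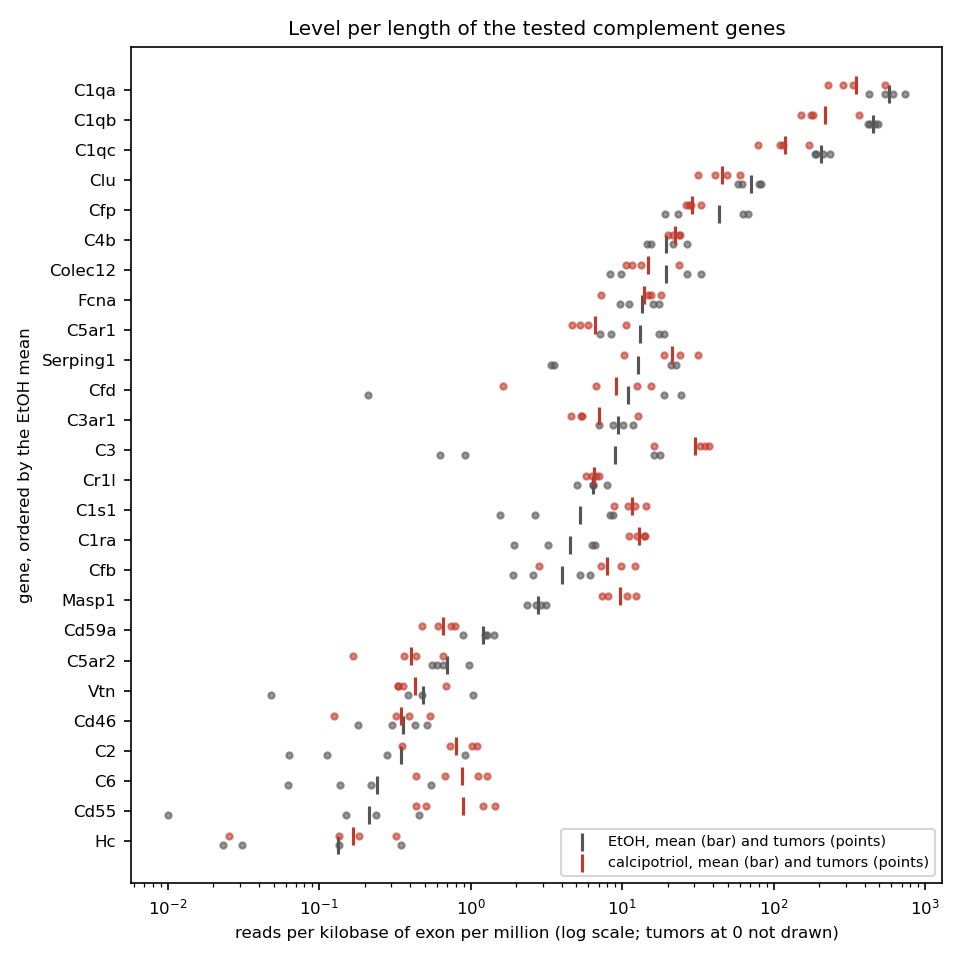
Levels per length (RPKM, log scale) of the 26 tested members, ordered by the EtOH mean, with points for tumors and bars for group means; a tumor at 0 is not drawn. C1qa, C1qb and C1qc are at the top in both groups, C3 has 2 EtOH tumors far below the other 2, and Masp1 and C1ra show calcipotriol points to the right of all EtOH points.

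Other complement genes were counted from a wider list of 41 symbols, of which 38 matched and 16 were tested. Of these, 7 had a higher and 9 a lower fitted level, with a median log2 fold change of -0.24, and 2 were lower past both thresholds. Over all tested genes, 0.948% were lower past both thresholds and 6.16% were lower without overlap. The 2 genes are too few to set against these shares. Cd93, a membrane glycoprotein of endothelial and myeloid cells once named a C1q receptor, was at 61.9, 69.9, 48.7 and 43.5 CPM with EtOH and 25.4, 11.0, 18.6 and 19.8 CPM with calcipotriol (log2 fold change -1.58, SE 0.25, adjusted p = 0.012, edgeR). C1qtnf1, a secreted protein with a C1q-like domain, was at 222, 200.5, 113 and 91.7 CPM with EtOH and 69.2, 46.7, 63.5 and 67.3 CPM with calcipotriol (log2 fold change -1.34, SE 0.27, adjusted p = 0.032). For both, all calcipotriol tumors were below all EtOH tumors. The summed endothelial list was also lower, at 125 to 283 CPM with EtOH and 47.5 to 105 with calcipotriol, with 6 of its 6 genes lower and 2 of them, Pecam1 and Kdr, past the thresholds. The part of endothelial cells in the Cd93 level was not tested. Calr, calreticulin, a chaperone that binds C1q, was lower in all 4 tumors without passing (log2 fold change -0.50, adjusted p = 0.109).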

How the data were processed

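The authors deposited estimated counts per gene (expected counts, to 2 decimals) for 8 tumors; the submitters' processing notes name GRCm38, STAR 2.5.3, RSEM 1.3.1 and DESeq2 1.24.0, and the annotation was not given in the sources used here. The counting is not stated to use strand, so overlapping antisense genes could share reads. The labels name a NovaSeq sequencer and the paper a HiSeq.

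Rounded counts were tested with edgeR 4.0.16 in R 4.3.3 (filterByExpr, TMM, glmQLFit, glmQLFTest) over 14458 genes with Benjamini-Hochberg adjustment. The study's thresholds were used (adjusted p under 0.05, change of 1 or more on the log2 scale). Standard errors were derived from the F statistic. P-values set the group difference against the spread between these tumors, which was estimated partly from all genes together. Symbols, positions and exon lengths came from GENCODE M21, which gave symbols for 52081 of 55414 identifiers; those without a symbol stayed in the test. The members and lists were chosen with earlier results of these data known. All members are named, and of other complement genes those with an adjusted p under 0.05, those without overlap at a mean of 20 counts or more, and near copies of members. Marker genes beyond the first 2 of a list were named after their values were seen. Alternatives were DESeq2 1.42.0 (size factors and test), limma-voom 3.58.1, other filters, identifiers without a symbol removed, near copies summed, the adjusted p alone, another length and tumors left out. On simulated counts with a log2 fold change of 2 and a single dispersion of 0.12, edgeR recovered 188 of 200 changed genes with 7 false calls. Smaller changes, and a split within the EtOH group, were not simulated, so this does not give the power for most members. Protein data and qRT-PCR were not analysed here.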

Additional observations from a re-analysis of the deposited data

Results flagged for a closer look

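The 52 groups of 4 tumors formed by the 26 tested members were examined for 1 tumor far from the rest by Dixon's ratio at the 95% level, which chance alone exceeds in about 1 of 20 groups, or 2.6 of 52. There were 3 such values, and all 3 were in calcipotriol tumor 1. C3 was at 84.0 CPM there and at 168 to 192 in the other calcipotriol tumors. C3ar1 was at 54.7 CPM there and at 19.9 to 23.5 in the others. Vtn was at 1.39 CPM there and at 0.673 to 0.731 in the others, at 35 counts or fewer.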

How the results depend on the processing

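The number of genes past both thresholds was 292 in all, and the number of members was 2. The total was 458 without a filter on low counts, 774 with DESeq2, 177 without EtOH tumors 1 and 2 and 605 without EtOH tumors 3 and 4 (both added after seeing the data), and 110 to 642 with each tumor left out in turn, highest without calcipotriol tumor 1. The members past both thresholds were 1 to 5 with each tumor left out and 7 without EtOH tumors 3 and 4. The log2 fold change turned sign for these members, none of which passed in the main comparison. With limma-voom, Fcna was -0.033, Cfd 2.04 and Vtn 0.28. Without EtOH tumors 1 and 2, Serping1 was -0.038, Fcna -0.26, Colec12 0.70, C4b -0.11, Hc -0.53 and Cd46 0.51. Without EtOH tumors 3 and 4, Cfd was 6.35, Cfp 0.44, Cr1l -0.14 and Vtn 0.98. Leaving out single tumors gave ranges of -0.11 to 0.25 for Fcna, -0.23 to 1.36 for Hc, -0.67 to 0.50 for Cfd, -0.34 to 0.23 for Cd46, -0.094 to 0.12 for Cr1l and -0.56 to 0.49 for Vtn. The causes were not tested. No paired analysis was possible because the groups share only replicate number 1. Depth limits what can be said of the 7 members that were not tested.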

Other observations

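Genes whose main source is the liver were detected at low levels. Of 8 hepatocyte genes, 7 were tested and all 7 had a higher fitted level in calcipotriol-treated tumors (median log2 fold change 1.34). The serum albumin gene Alb was at 2.77, 2.73, 4.9 and 6.62 CPM with EtOH and 9.34, 18.4, 10.3 and 14.6 CPM with calcipotriol (log2 fold change 1.63, adjusted p = 0.039, edgeR), and it was the only one past both thresholds. The summed list was at 4.77 to 9.6 CPM with EtOH and 12.2 to 29.1 with calcipotriol. Mbl2, C8g and Hc, complement genes known for their expression in liver, stayed at or below 2.16 CPM in every tumor.

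Ptx3, a pentraxin that binds C1q, was at 0, 0, 12.5 and 12.3 CPM with EtOH and 5.39 to 19.6 with calcipotriol. It was named after its values were seen.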
